A study of Mus musculus with 27 samples.

Results

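A set of 83 genes was at least 1 log2 unit (2-fold) higher in thymic Treg precursors than in both kinds of CD24hi thymocyte, Foxp3+ and Foxp3-. They were chosen from 18194 genes measured on Affymetrix 3' arrays, each gene represented by its brightest probe set with a single symbol, and made up 0.456% of them. The rule used the group means of the precursor, Foxp3+ CD24hi and Foxp3- CD24hi arrays, so the values of those 9 arrays describe how the genes were chosen and carry no test. RNA came from sorted T cells of BALB/c mice, with 3 arrays in each of 9 groups and 27 in all. The thymic groups were Treg precursors, and 3 CD24 levels each of Foxp3+ GFP+ and of Foxp3- GFP- cells, high (CD24hi), intermediate (CD24int) and low (CD24lo). The lymph node groups were Tregs and naive T cells. By the series title, precursors were CD4 single-positive, lacked Foxp3-linked GFP and carried CD25. The thymocytes that the title sets them against lacked CD25. That is not to be read as holding for the Foxp3+ CD24hi cells, whose RNA for CD25 was above that of the precursors (Il2ra means of 10.18 and 8.16). The labels and title name GFP for the thymic groups, and no label gives the age of the mice, the CD24 level of the precursors, or how many animals went into a sample. Replicates are separate samples by their labels, but whether they are different animals is not stated, and the p-values rest on a spread between samples that may be technical. The labels of the Foxp3- groups also carry the word Treg, and these groups were compared as conventional cells, as the design text has it.

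Regulatory T cells (Tregs) restrain immune responses and depend on the transcription factor Foxp3. In the thymus, CD4+ cells that have met a self ligand take up CD25, the interleukin-2 receptor alpha chain, before Foxp3 appears, and cells in that state are known as Treg precursors. CD24 is lost as thymocytes mature. Double-positive thymocytes, the stage before CD4 or CD8 commitment, carry the recombinase that assembles the T cell receptor alpha chain. Innate-like T cells, among them NKT and gamma delta T cells, mature in the thymus too and carry natural killer receptors, effector cytokines and the transcription factor PLZF (Zbtb16). T cell receptor signals in turn induce immediate early genes, NF-kB targets and cytokines such as interleukin-2. Lists of these 3 kinds of transcript were used to tell the 83 genes apart.

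Promoter sequences are shown for 5 genes that stand for the 3 kinds, double-positive (Rag1, Ptcra), innate-like (Cxcr6) and signal-induced (Xcl1, Il2). Each covers 250 bases before to 50 bases after the transcript start, 5′ to 3′ on the strand of the gene, from RefSeq on GRCm38.p6. Capitals mark E-boxes (CANNTG) in Rag1 and Ptcra, the RUNX letters TGTGGT in Cxcr6 and the NFAT core GGAAA in Xcl1 and Il2, on either strand.
Rag1 (chr2:101649483-101649782, minus strand): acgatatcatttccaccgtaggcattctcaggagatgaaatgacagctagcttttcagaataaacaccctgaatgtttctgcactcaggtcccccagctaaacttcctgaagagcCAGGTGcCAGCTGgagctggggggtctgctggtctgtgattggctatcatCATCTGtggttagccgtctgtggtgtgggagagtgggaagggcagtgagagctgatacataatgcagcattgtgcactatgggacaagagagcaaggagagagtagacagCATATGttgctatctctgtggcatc
Ptcra (chr17:46763663-46763962, minus strand): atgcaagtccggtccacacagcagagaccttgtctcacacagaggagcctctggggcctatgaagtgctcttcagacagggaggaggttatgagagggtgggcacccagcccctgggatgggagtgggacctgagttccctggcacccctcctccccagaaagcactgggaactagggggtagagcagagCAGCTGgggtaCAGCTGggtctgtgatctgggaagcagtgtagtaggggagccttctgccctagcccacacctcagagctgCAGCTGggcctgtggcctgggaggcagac
Cxcr6 (chr9:123806227-123806526, plus strand): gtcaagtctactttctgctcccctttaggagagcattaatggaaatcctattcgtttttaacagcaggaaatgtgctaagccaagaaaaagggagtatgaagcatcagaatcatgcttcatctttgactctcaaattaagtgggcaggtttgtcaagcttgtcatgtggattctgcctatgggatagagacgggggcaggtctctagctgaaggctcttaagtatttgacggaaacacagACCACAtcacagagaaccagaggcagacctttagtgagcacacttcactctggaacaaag
Xcl1 (chr1:164935473-164935772, minus strand): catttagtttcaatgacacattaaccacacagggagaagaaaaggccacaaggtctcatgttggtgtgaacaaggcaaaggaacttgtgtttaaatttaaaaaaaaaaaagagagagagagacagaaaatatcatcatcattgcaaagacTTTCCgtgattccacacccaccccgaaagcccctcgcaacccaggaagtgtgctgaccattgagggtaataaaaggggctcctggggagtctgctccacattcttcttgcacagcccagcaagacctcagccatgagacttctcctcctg
Il2 (chr3:37125905-37126204, minus strand): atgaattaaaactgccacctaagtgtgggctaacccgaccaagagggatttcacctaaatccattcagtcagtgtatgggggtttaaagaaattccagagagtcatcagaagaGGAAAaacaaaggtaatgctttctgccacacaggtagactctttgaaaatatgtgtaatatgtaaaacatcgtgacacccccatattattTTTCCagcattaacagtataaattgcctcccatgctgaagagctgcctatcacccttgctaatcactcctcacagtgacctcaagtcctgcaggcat

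In these windows, Rag1 held 4 E-boxes and Ptcra 3. Cxcr6 held the RUNX letters 1 time and the T-box letters AGGTGT 0 times. Xcl1 held 1 NFAT core and Il2 held 2, and neither held the AP-1 letters TGANTCA. The letters were not particular to the kind of gene in which they are marked. Unmarked, Cxcr6 held 3 NFAT cores, Rag1 held 1 NFAT core and the RUNX letters 2 times, and Xcl1 held the RUNX letters 1 time. The RefSeq table had promoters for 65 of the 83 genes, 88 windows in all because some genes have several starts. An E-box was found in 83% of these windows, against 72.3% of all 32851 promoters in the table, and in 93% of the windows of the genes described below as recurring. For NFAT the share was 68.2% against 61.3%, for AP-1 13.6% against 7.81%, for RUNX 20.5% against 16.8% and for the T-box letters 13.6% against 13.7%. The cyclic AMP element TGACGTCA was in 0 of the 88 windows and in 1.79% of all promoters. Both strands were read, and AGGTGT can overlap an E-box. These letter matches are descriptions and were not tested.

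As a check of the sort, Foxp3 averaged 3.97 ± 0.17 in precursors, 10.07 ± 0.11 in the Foxp3+ and 3.80 ± 0.44 in the Foxp3- CD24hi cells (log2 intensity, SD, n = 3 each). Il2ra, which encodes CD25, averaged 8.16 ± 0.29 in precursors, against 10.18 ± 0.22 in Foxp3+ CD24hi cells and 4.42 ± 0.23 in those lacking Foxp3. Cd24a, which encodes CD24, averaged 11.74 ± 0.43 in precursors, the highest of the 9 groups. It had 10.34 ± 0.50 in the Foxp3+ and 10.93 ± 0.24 in the Foxp3- CD24hi cells. Array medians lay between an intensity of 30.3 and 32.0, and replicates of a group correlated at 0.987 to 0.997. Some arrays stood apart. In precursor replicate 3, 168 of 18194 genes (0.923%) were at least 1 below the mean of replicates 1 and 2, and 33 of the 83 genes were among them, against 30 genes (0.165%) at least 1 above. Foxp3- CD24int replicate 3 was at least 1 below the other replicates in 22 of the 83. In Foxp3- CD24hi replicate 3, a list of 8 liver genes averaged 9.30, against 4.12 and 4.27 in the other replicates, and none of the 83 genes is on that list. Chosen without precursor replicate 3, the set had 108 genes, 76 of them shared, and chosen without Foxp3- CD24hi replicate 3 it had 83, 80 of them shared.

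The smaller of the 2 differences, here called the margin, ran from 1.01 to 3.99. The last genes inside the threshold were Ppic (1.049), Ccdc18 (1.032) and Asns (1.014), and the first outside were Crabp2 (0.996), Foxred2 (0.996) and Lonrf1 (0.995). All 3 precursor arrays lay above all 6 CD24hi arrays in 68 of the 83 genes, a separation that 4.02% of all genes showed. The rule chose the 83 by these same arrays, so setting the 2 shares side by side is a description and no test. Of the 40 genes with several probe sets, every probe set met the rule in 6, and in 11 at least 1 probe set pointed the other way.

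The genes were not all highest in precursors. Over all 9 groups the highest mean was that of precursors in 42 genes, of Foxp3- CD24lo cells in 33, of lymph node Tregs in 5, of lymph node naive cells in 2 and of Foxp3+ CD24lo cells in 1. The lead of the highest group was at least 1 in 24 of the first 42 and in 21 of the 33. The genes were sorted by descriptive patterns on group means, each a difference of at least 1. Recurring genes, higher in Foxp3- CD24lo than in Foxp3- CD24int cells, numbered 42. Declining genes, higher in Foxp3- CD24hi than in Foxp3- CD24int cells, numbered 4. Genes shared with Foxp3+ cells, higher in Foxp3+ CD24int than in Foxp3- CD24int cells, numbered 13. Of all genes, 2.62%, 0.786% and 2.91% met these 3 patterns. Recurring and shared overlapped in 7 genes, declining and shared in 1, and 32 genes met none. The 3 lists placed 14 of 36 innate-like genes, 5 of 15 double-positive genes and 4 of 55 signal-induced genes among the 83, and 60 of the 83 were on none of the 14 lists compiled. No gene of the lists for early progenitors, cell cycle, B cells, CD8 T cells, thymic epithelium, antigen-presenting cells, erythroid cells, liver, dissociation stress or interferon response was among them.

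**Figure D1:**
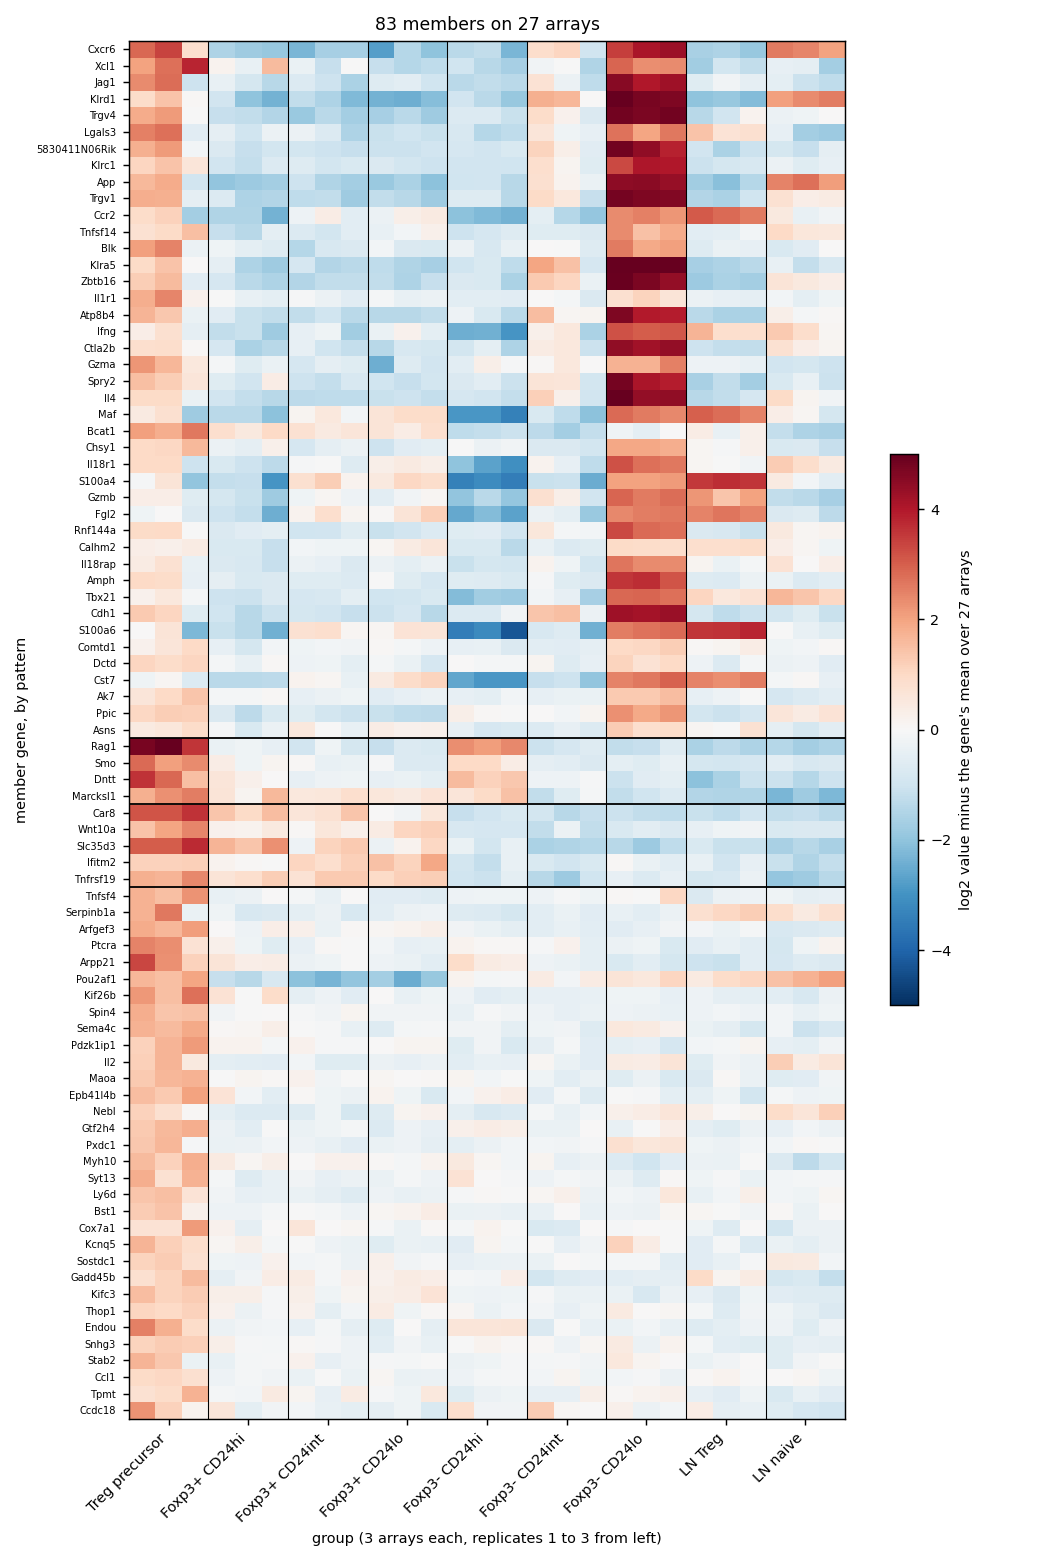
Heat map of the 83 genes (rows, sorted by pattern) on the 27 arrays (columns, 3 per group). Colour gives the log2 intensity minus the gene's mean over all arrays, and values past the ends of the colour bar take its end colours. The upper block of recurring genes is high in the precursor arrays, with replicate 3 paler, and in most rows highest in Foxp3- CD24lo cells, while the lower blocks are high mainly in precursors.

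Comparisons among the 18 arrays that the rule did not use were tested with limma, with p-values adjusted over all 18194 genes and passing at an adjusted p under 0.05. The spread of each gene was estimated from all 27 arrays. A wide spread among the precursor arrays therefore widens the SE of every comparison of that gene. From CD24int to CD24lo in Foxp3- cells, 46 of the 83 genes rose and 1 fell, against 7.86% and 4.13% of all genes, and the median difference was 1.11 against 0.01 over all genes. In Foxp3+ cells the same step moved 0 of the 83, with 0.011% of all genes rising and 0.0055% falling. There, 10 of the 83 had an unadjusted p under 0.05 by limma, against 4.5% of all genes. With array weights 3 of the 83 passed. The share of all genes under that fit is not given here, and the shares above belong to the unweighted fit. The Foxp3+ step minus the Foxp3- step, tested directly, was below 0 in 41 of the 83 and above 0 in 0, against 3.57% and 1.41% of all genes. Foxp3+ CD24lo cells were lower than Foxp3- CD24lo cells in 47 of the 83 (background 11.2%) and higher in 13 (9.85%). At CD24int, Foxp3+ cells were higher than Foxp3- cells in 15 (8.66%) and lower in 16 (6.62%). Lymph node naive cells were lower than Foxp3- CD24lo thymocytes in 52 (8.58%) and higher in 2 (6.03%). Lymph node Tregs were higher than lymph node naive cells in 17 (8.01%) and lower in 15 (4.35%), and compared with Foxp3+ CD24lo thymocytes they were higher in 12 (3.15%) and lower in 8 (2.78%). Bulk arrays cannot tell fewer cells carrying a transcript from less RNA per cell, here and in the results that follow. The Foxp3- CD24lo arrays enter 4 of these comparisons, which are therefore not independent of each other.

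**Figure D2:**
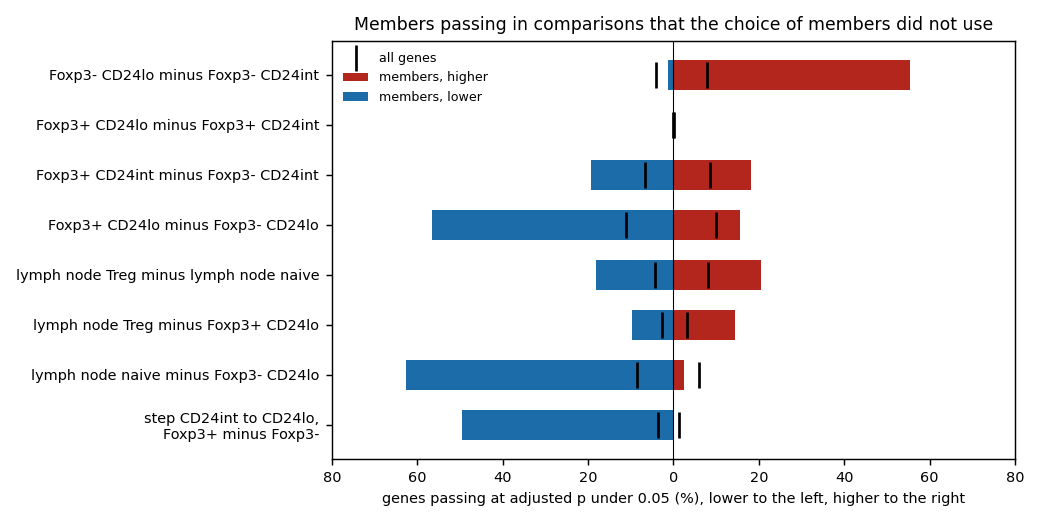
Share of the 83 genes passing in each of the 8 tested comparisons, with higher genes in red to the right and lower genes in blue to the left. Black ticks mark the share of all 18194 genes passing. The bars pass the ticks by most where Foxp3- CD24lo cells are one side of the comparison, and the Foxp3+ step from CD24int to CD24lo has no bar.

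The innate-like genes were the most numerous of the 3 kinds, with 14 of the 36 measured list genes among the 83, and all 14 were recurring. They rose from CD24int to CD24lo in Foxp3- cells in 14 of 14 (median 3.70), and at CD24lo the Foxp3+ cells were lower in 14 of 14 (median -5.25). The whole list behaved alike in that step, with 30 of 36 genes up and 1 down and a median of 2.48. The precursor level of the 14 stood below the Foxp3- CD24lo level in 14 of 14, by a median difference of -2.84. Of the 36, 20 were at least 1 higher in precursors than in Foxp3- CD24hi cells. Against Foxp3+ CD24hi cells 17 were at least 1 higher and 4 at least 1 lower. The 22 list genes that the rule left out averaged 5.49 to 5.80 on the precursor arrays. They averaged 5.57 to 5.67 in Foxp3+ CD24hi, within that range, and 4.89 to 5.13 in Foxp3- CD24hi cells.

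Cxcr6, a chemokine receptor of NKT and other tissue-homing lymphocytes, had the largest margin of all. It measured 8.81, 9.32 and 6.77 in precursors, 4.40, 4.15 and 4.05 in Foxp3+ CD24hi and 4.59, 4.69 and 3.66 in Foxp3- CD24hi cells. Every precursor array was above every CD24hi array, although replicate 3 was more than 2 units below its fellows. Foxp3- cells had 6.81, 7.02 and 4.93 at CD24int and 9.39, 10.03 and 10.19 at CD24lo, whereas no Foxp3+ array of the thymus exceeded 4.50. The Foxp3- step was 3.62 ± 0.50 (log2 difference ± SE, 12.3-fold, adjusted p = 7.58e-06). The receptor was also high in lymph node naive cells (8.52, 8.37 and 7.93) and low in lymph node Tregs (4.31, 4.37 and 4.02), with Tregs minus naive at -4.04 ± 0.50 (adjusted p = 1.14e-06).

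Zbtb16 encodes PLZF, the factor that directs innate-like T cell development. Its precursor values were 7.46, 7.80 and 5.65, against 5.36, 4.85 and 4.66 in Foxp3+ CD24hi and 5.47, 5.44 and 4.63 in Foxp3- CD24hi cells. Foxp3- CD24int cells, at 7.52, 7.28 and 5.88, covered the same range as the precursors, and Foxp3- CD24lo cells reached 11.17, 10.91 and 10.61. The Foxp3+ thymocyte arrays beyond CD24hi stayed between 4.68 and 5.04, and Foxp3+ minus Foxp3- at CD24lo was -5.99 ± 0.39 (adjusted p = 1.08e-11).

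The natural killer receptor genes Klrd1 (CD94), Klrc1 (its partner NKG2A) and Klra5 (of the Ly49 family) followed the same order. Klrd1 had 5.75, 6.26 and 4.92 in precursors, 3.87, 2.83 and 2.49 in Foxp3+ CD24hi and 3.90, 3.49 and 2.95 in Foxp3- CD24hi cells. In Foxp3- CD24lo cells it stood at 10.11, 9.60 and 9.50, which was the largest separation from Foxp3+ CD24lo cells (2.50, 2.39 and 2.71) of any of the 83 genes, at -7.20 ± 0.39 (adjusted p = 3.8e-13). Klra5 had 5.70, 6.17 and 4.77 in precursors and reached 10.74, 10.35 and 9.90 in Foxp3- CD24lo cells, the largest Foxp3- step among the 83 (4.73 ± 0.47, adjusted p = 4.92e-08). Klrc1 stayed under 5 in every precursor array (4.43, 4.81 and 3.96), yet all CD24hi arrays were lower still, at 2.18 to 2.70. Members of the Ly49 and NKG2 families are close in sequence, so their probe sets may also read relatives.

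Trgv4 and Trgv1, variable segments of the T cell receptor gamma chain, stayed low in Foxp3+ thymocytes. Trgv4 measured 9.46, 9.70 and 7.57 in precursors, against 6.45, 6.35 and 6.12 in Foxp3+ CD24hi and 6.92, 6.91 and 6.46 in Foxp3- CD24hi cells. It reached 12.40, 12.30 and 12.42 in Foxp3- CD24lo cells and was lower in lymph node naive cells, at 7.31, 7.37 and 7.61 (naive minus CD24lo -4.95 ± 0.41, adjusted p = 2.31e-09). Trgv1, at 9.40, 9.39 and 7.13 in precursors and 12.38, 12.28 and 12.24 in Foxp3- CD24lo cells, went with it. Gamma segments resemble each other, and whether a probe set reads a single one was not tested.

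The effector genes Ifng, Il4, Gzma and Gzmb were lower in precursors than in Foxp3- CD24lo cells too. Ifng, which encodes interferon-gamma, had 6.69, 7.19 and 5.92 in precursors, 5.13, 5.28 and 4.59 in Foxp3+ CD24hi and 3.93, 3.99 and 3.43 in Foxp3- CD24hi cells. Il4, named here as one of 14 although ranked after the first 10, had 5.65, 5.62 and 4.34 in precursors and 10.00, 9.09 and 9.10 in Foxp3- CD24lo cells. Gzma (granzyme A) was nearest to the Foxp3- CD24lo level, with 8.91, 8.35 and 7.22 in precursors against 8.42, 8.44 and 9.23, and the groups overlapped. Gzmb, granzyme B and the only listed interleukin-2 target among the 83, was high in lymph node Tregs (8.45, 7.63 and 8.26) and not in lymph node naive cells (5.01, 4.90 and 4.57), a difference of 3.29 ± 0.33 (adjusted p = 3.71e-08).

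Tbx21 (T-bet) and Maf, transcription factors of effector lymphocytes, and Blk, a Src family kinase, completed the list. Tbx21, the 14th by margin, had 5.90, 6.20 and 5.59 in precursors, 4.64, 4.62 and 4.97 in Foxp3+ CD24hi and 3.53, 3.95 and 3.85 in Foxp3- CD24hi cells. Maf was the 1 of the 14 that was called higher in Foxp3+ than in Foxp3- cells at CD24int, at 9.05, 9.43 and 8.76 against 8.15, 7.63 and 6.87 (difference 1.53 ± 0.43, adjusted p = 0.0151). That call was lost on leaving out Foxp3+ CD24int replicate 2 or Foxp3- CD24int replicate 3 (adjusted p of 0.0742 and 0.107). Like Gzmb it was high in lymph node Tregs (11.90, 11.70 and 11.38). Its precursor values of 9.37, 9.71 and 7.12 overlapped those of Foxp3+ CD24hi cells (7.56, 7.55 and 6.86), again through replicate 3. Blk reached 6.86 and 7.28 in 2 precursor arrays and 4.50 in replicate 3, level with the highest of the Foxp3- CD24hi arrays (4.50, 4.00 and 4.44).

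**Figure D3:**
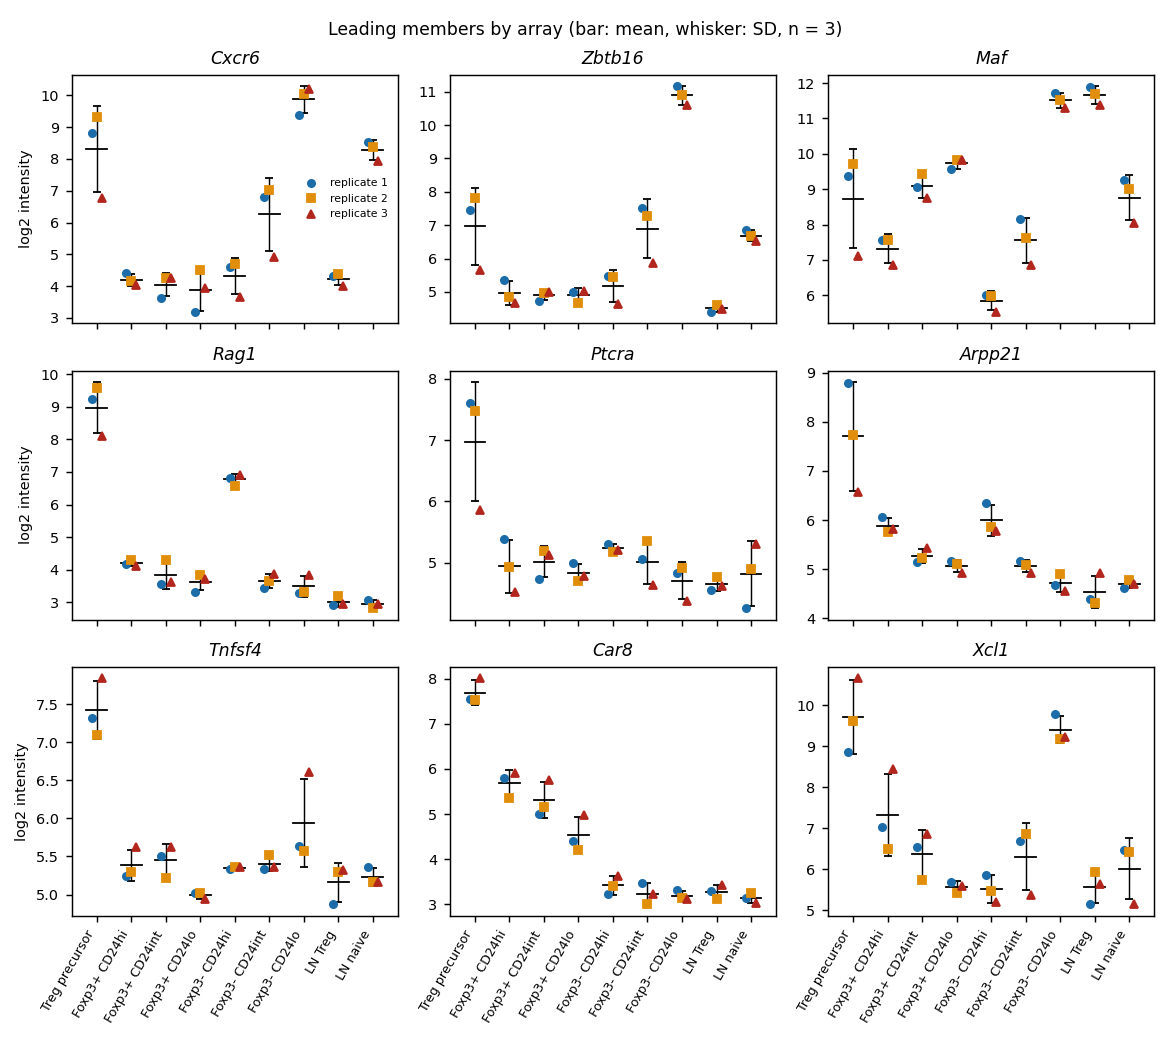
Log2 intensity of 9 genes on each array, with 1 panel per gene, coloured symbols for replicates 1 to 3, and a bar and whisker for the mean and SD of 3 arrays. Cxcr6, Zbtb16 and Maf peak again in Foxp3- CD24lo cells, Rag1, Ptcra and Arpp21 are high in precursors with replicate 3 lowest, and in Tnfsf4, Car8 and Xcl1 replicate 3 is the highest precursor array.

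A further 26 recurring genes were on none of the 3 lists, and 26 of 26 rose in the Foxp3- step. As the pattern was defined on the same means, that count was fixed by it. In comparisons that did not define it, lymph node naive cells were lower than Foxp3- CD24lo cells in 26 of 26 and Foxp3+ CD24lo lower than Foxp3- CD24lo cells in 24 of 26 with 1 higher, although these share the Foxp3- CD24lo arrays.

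Jag1, a Notch ligand, had 6.81, 7.21 and 3.41 in precursors, against 4.07, 3.55 and 3.06 in Foxp3+ CD24hi and 3.07, 3.19 and 3.08 in Foxp3- CD24hi cells. Replicate 3 lay within the range of the CD24hi arrays, and the precursor mean rests on the other 2. Foxp3- CD24lo cells had 8.99, 8.43 and 8.67, a step of 4.54 ± 0.59 from CD24int (adjusted p = 3.3e-06). Lgals3, which encodes the lectin galectin-3, showed the same split, with 9.15, 9.38 and 6.07 in precursors against 6.18, 5.65 and 6.36 in Foxp3+ CD24hi and 5.85, 5.23 and 5.38 in Foxp3- CD24hi cells. It rose by 2.46 ± 0.55 in the Foxp3- step (adjusted p = 0.00253). App, the amyloid precursor protein gene, had 7.30, 7.53 and 4.70 in precursors and 10.13, 10.19 and 10.01 in Foxp3- CD24lo cells, and was also high in lymph node naive cells (8.15, 8.41 and 7.75) but not in lymph node Tregs (3.94, 3.57 and 4.24). The uncharacterised gene 5830411N06Rik measured 8.09, 8.43 and 6.16 in precursors and 11.12, 10.74 and 10.17 in Foxp3- CD24lo cells, and no array of the other groups but Foxp3- CD24int exceeded 5.84. Both subunit genes of the interleukin-18 receptor, picked out after their values were seen, belonged here, with Il18r1 at 8.93 in precursors and 11.47 in Foxp3- CD24lo cells and Il18rap at 6.62 and 8.81 (means of 3 arrays).

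A group of 7 recurring genes was also shared with Foxp3+ cells, namely Ccr2, Maf, Bcat1, S100a4, Fgl2, S100a6 and Cst7. Lymph node Tregs were higher than lymph node naive cells in 7 of 7 (median 2.90) and higher than Foxp3+ CD24lo thymocytes in 6 of 7. In the thymus at CD24lo, Foxp3+ cells were lower than Foxp3- cells in 5 of the 7 and higher in 1 (median -1.85). S100a4, a calcium-binding protein gene of effector T cells, measured 8.48, 9.19 and 6.54 in precursors, 7.32, 7.38 and 5.56 in Foxp3+ CD24hi and 5.15, 5.38 and 5.07 in Foxp3- CD24hi cells. It stood at 12.08, 12.20 and 12.12 in lymph node Tregs, well over the precursors, and at 8.98, 8.39 and 8.00 in lymph node naive cells (difference 3.67 ± 0.49, adjusted p = 3.78e-06). S100a6, its relative, reached 11.17, 11.20 and 11.40 in lymph node Tregs against 7.62, 8.22 and 5.33 in precursors. Ccr2, a chemokine receptor, had 10.05, 9.82 and 9.60 in lymph node Tregs, 7.48, 6.62 and 6.81 in lymph node naive cells, and 7.91, 8.15 and 5.31 in precursors. Fgl2, a secreted protein gene of Tregs, averaged 8.08 ± 0.10 in lymph node Tregs and 5.23 ± 0.39 in precursors (SD, n = 3 each).

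The double-positive genes Rag1, Ptcra, Arpp21, Dntt and Endou took another course. All 5 were highest in precursors, 2 of them (Rag1, Dntt) declined from Foxp3- CD24hi to CD24int by at least 1, and 0 of the 5 were recurring. Endou (means of 6.53 and 5.54) and Arpp21 (5.99 and 5.06) fell in that step by just under 1. In the 8 tested comparisons 1 call was made among the 5, Dntt in lymph node Tregs against Foxp3+ CD24lo thymocytes.

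Rag1, a subunit of the recombinase that cuts antigen receptor genes, measured 9.24, 9.59 and 8.09 in precursors, 4.18, 4.29 and 4.11 in Foxp3+ CD24hi and 6.82, 6.58 and 6.91 in Foxp3- CD24hi cells. The 3 groups did not overlap, and the Foxp3- CD24hi cells were themselves well above all later groups, whose highest array was 4.30. Ptcra, which encodes the pre-T cell receptor alpha chain, had 7.60, 7.47 and 5.86 in precursors, and all CD24hi arrays lay between 4.52 and 5.38. Dntt encodes terminal transferase, which adds nucleotides at receptor junctions. It had 10.37, 9.65 and 8.26 in precursors, 7.37, 7.01 and 6.79 in Foxp3+ CD24hi and 8.35, 7.92 and 8.11 in Foxp3- CD24hi cells, and precursor replicate 3 overlapped the last of these. Its lymph node Treg values of 4.72, 5.17 and 5.69 were lower than those of Foxp3+ CD24lo thymocytes (6.37, 6.45 and 6.29), with a difference of -1.18 ± 0.31 (adjusted p = 0.0231). That call was lost on leaving out any of the 3 Foxp3+ CD24lo arrays or lymph node Treg replicate 1 or 2, with adjusted p-values of 0.0574 to 0.151. Arpp21, a cyclic AMP-regulated phosphoprotein gene, had 8.79, 7.74 and 6.58 in precursors and 5.76 to 6.35 across the CD24hi arrays. Endou, a poly(U)-specific endoribonuclease gene, had 8.45, 7.68 and 6.84 in precursors and 6.51, 6.51 and 6.58 in Foxp3- CD24hi cells. All other arrays were at 5.93 or less.

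The other 10 double-positive genes did not meet the rule. Their precursor means differed from the Foxp3- CD24hi means by -1.41 (Ccr9, the receptor for the thymic chemokine Ccl25) to 0.81 (Cd24a). Cd8a, whose protein defines the stage, averaged 6.26 in precursors, 5.70 in the Foxp3+ and 6.04 in the Foxp3- CD24hi cells. Over these 10 genes the mean level was 7.60, 7.44 and 7.41 on the precursor arrays, 6.69 to 6.83 in Foxp3+ CD24hi and 7.48 to 7.61 in Foxp3- CD24hi cells, so the precursor and Foxp3- CD24hi ranges overlapped. The 23 measured cell cycle genes averaged 9.30, 8.23 and 8.00 on the precursor arrays, 7.47 to 8.51 in Foxp3+ CD24hi and 7.98 to 8.73 in Foxp3- CD24hi cells. Whether either has a part in the level of these 5 genes was not tested.

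Smo, the signal transducer of the Hedgehog pathway, and Marcksl1, a MARCKS-related protein gene, were the other declining genes. Smo had 7.54, 6.78 and 7.10 in precursors, 5.09, 4.52 and 4.88 in Foxp3+ CD24hi and 5.74, 5.72 and 5.08 in Foxp3- CD24hi cells. The precursors lay above both CD24hi groups, which overlapped each other. Marcksl1, at 9.66, 10.19 and 10.45 in precursors, was retained by Foxp3+ cells at CD24lo (8.46, 8.33 and 8.59) and less so by Foxp3- cells (6.68, 6.89 and 7.21), a difference of 1.54 ± 0.29 (adjusted p = 0.000257). In both genes replicate 3 lay within or above the range of the other precursor arrays.

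Signal-induced genes were the fewest, with 4 of 55 measured list genes among the 83. In 22 of the 55 the precursor mean was at least 1 above Foxp3- CD24hi cells, but in 15 of these it was within 1 of Foxp3+ CD24hi cells and in 3 at least 1 below them. Dusp4, a MAP kinase phosphatase gene outside the 83 that was picked after its values were seen, averaged 10.09 in precursors, 10.92 in the Foxp3+ and 6.33 in the Foxp3- CD24hi cells. Lymph node Tregs were higher than naive cells in 32 of the 55 (8.01% of all genes) and lower in 5 (4.35%). The list also holds genes that were high in Tregs, such as Ctla4 and Ikzf2, named for this alone. Their means were 11.60 and 12.42 in lymph node Tregs and 6.18 and 7.76 in naive cells. These counts therefore do not tell signal induction apart from Treg genes on the list. The 4 that met the rule were Xcl1, Il2, Spry2 and Gadd45b, of which Xcl1 and Spry2 were recurring and the others met no pattern.

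Xcl1 encodes lymphotactin, a chemokine for cross-presenting dendritic cells. It measured 8.87, 9.62 and 10.66 in precursors, 7.03, 6.49 and 8.45 in Foxp3+ CD24hi and 5.87, 5.48 and 5.20 in Foxp3- CD24hi cells. The groups did not overlap, and Foxp3+ CD24hi cells lay between the others. Foxp3- CD24lo cells carried it again (9.78, 9.19 and 9.23, a step of 3.10 ± 0.46 from CD24int, adjusted p = 2.37e-05), whereas Foxp3+ CD24lo cells had 5.70, 5.43 and 5.58.

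Spry2, a feedback inhibitor of ERK signalling, had 6.37, 6.09 and 5.47 in precursors, 4.24, 3.91 and 5.22 in Foxp3+ CD24hi and 4.12, 4.32 and 3.79 in Foxp3- CD24hi cells. Its high was in Foxp3- CD24lo cells (9.63, 8.95 and 8.77), where Foxp3+ cells had 3.85, 3.69 and 3.94 (Foxp3+ minus Foxp3- -5.29 ± 0.34, adjusted p = 9.36e-12). Il2, the interleukin-2 gene, had 4.83, 5.34 and 4.13 in precursors and 3.10 to 3.26 on all CD24hi arrays. Its levels were also above 4 on the Foxp3- CD24lo (4.05, 4.01 and 4.31) and lymph node naive arrays (4.87, 4.07 and 4.31), and lymph node Tregs (3.06, 3.47 and 3.37) were lower than naive cells (difference -1.12 ± 0.22, adjusted p = 0.000666). Gadd45b, a stress-response gene, went the other way. It had 9.20, 9.50 and 9.99 in precursors, and lymph node Tregs (9.34, 8.54 and 8.81) were higher than naive cells (7.52, 7.65 and 7.23) by 1.43 ± 0.21 (adjusted p = 1.83e-05).

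A group of 5 genes was shared with Foxp3+ cells and not recurring or declining, namely Car8, Wnt10a, Slc35d3, Ifitm2 and Tnfrsf19. Their precursor level was above that of Foxp3+ CD24hi cells, which in turn was above Foxp3- CD24hi cells. At CD24lo, Foxp3+ cells were higher than Foxp3- cells in 5 of 5 (median 1.62), and lymph node Tregs were lower than Foxp3+ CD24lo thymocytes in 5 of 5 (median -1.30).

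Car8, a carbonic anhydrase-related protein gene, measured 7.55, 7.52 and 8.01 in precursors, 5.79, 5.35 and 5.92 in Foxp3+ CD24hi and 3.22, 3.41 and 3.63 in Foxp3- CD24hi cells. It was 5.01, 5.16 and 5.76 in Foxp3+ CD24int cells and 4.41, 4.21 and 4.97 in Foxp3+ CD24lo cells, and lymph node Tregs had 3.29, 3.12 and 3.43. The last difference was -1.25 ± 0.20 (adjusted p = 0.000157), and the Foxp3+ step from CD24int to CD24lo did not pass (-0.78 ± 0.20, adjusted p = 0.266). Slc35d3, of a nucleotide sugar transporter family, had 7.43, 7.43 and 8.14 in precursors, 6.12, 5.78 and 6.69 in Foxp3+ CD24hi and 4.07, 3.48 and 4.02 in Foxp3- CD24hi cells. Its lower lymph node Treg level (-1.30 ± 0.33, adjusted p = 0.0141) lost the call on leaving out Foxp3+ CD24lo replicate 3 or lymph node Treg replicate 2 or 3 (adjusted p of 0.0559 to 0.142). Wnt10a, a secreted Wnt ligand gene, had 7.47, 8.00 and 8.47 in precursors, 6.26, 6.22 and 6.54 in Foxp3+ CD24hi and 5.24, 5.22 and 5.21 in Foxp3- CD24hi cells. Foxp3+ CD24lo cells kept it at 6.45, 7.10 and 7.25, above Foxp3- CD24lo cells by 1.56 ± 0.23 (adjusted p = 9.46e-06).

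Tnfrsf19, the TNF receptor family member TROY, had 9.40, 9.35 and 10.03 in precursors, 8.28, 8.46 and 8.87 in Foxp3+ CD24hi and 6.65, 6.58 and 7.15 in Foxp3- CD24hi cells. Its difference between Foxp3+ and Foxp3- cells at CD24int, 2.50 ± 0.22 (adjusted p = 6.76e-09), was the largest rise among the 83 in that comparison. Ifitm2, of the interferon-induced transmembrane family, was the gene whose highest group was Foxp3+ CD24lo, at 6.63, 6.28 and 7.08, against 6.32, 6.31 and 6.34 in precursors. Lymph node Tregs (4.78, 4.21 and 4.76) were below those Foxp3+ thymocytes (difference -2.08 ± 0.20, adjusted p = 1.1e-07). In all 5 genes precursor replicate 3 was above the mean of replicates 1 and 2, by a median of 0.65.

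The remaining 32 genes met none of the patterns, and 3 of them are the double-positive genes Ptcra, Arpp21 and Endou. In 32 of 32 the precursor mean was above the Foxp3- CD24lo mean, by a median of 1.41, and in 32 of 32 above that of lymph node Tregs. The precursor values are those by which the genes were chosen. Lymph node naive cells were above precursors in Pou2af1 (means of 7.09 and 7.03) and in Nebl (6.44 and 6.23), which is named for this alone. In the Foxp3- step 3 rose and 1 fell (median 0.11), against 7.86% and 4.13% of all genes. At CD24lo, Foxp3+ cells were higher than Foxp3- cells in 6 of the 32 (9.85% of all genes) and lower in 7 (11.2%). These were the most calls of any comparison for these genes. Lymph node naive cells were higher than Foxp3- CD24lo cells in 2 (6.03% of all genes) and lower in 7 (8.58%). Tregs of the lymph node were higher than naive cells in 3 (8.01%) and lower in 4 (4.35%). The counts in the Foxp3- step and the rises in these lymph node comparisons were near the shares of all genes. The other 4 comparisons made 0 to 3 calls each.

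Tnfsf4, the OX40 ligand, had the largest margin of these. It measured 7.32, 7.10 and 7.84 in precursors, 5.24, 5.30 and 5.62 in Foxp3+ CD24hi and 5.34, 5.36 and 5.36 in Foxp3- CD24hi cells. The other arrays ranged from 4.87 to 5.64 apart from Foxp3- CD24lo replicate 3 at 6.61, so all precursor arrays stood above all 24 others. Arfgef3, of a family of guanine nucleotide exchange factors for ARF proteins, was likewise set apart, with 5.22, 5.03 and 5.45 in precursors, 3.37, 3.10 and 3.69 in Foxp3+ CD24hi and 3.18, 3.02 and 2.86 in Foxp3- CD24hi cells. Serpinb1a, an inhibitor of neutrophil serine proteases, rested on 2 arrays, with 5.17, 6.05 and 3.10 in precursors against 2.56 to 3.22 on the CD24hi arrays. In the lymph node it had 4.22, 4.48 and 4.67 in Tregs and 4.29, 3.88 and 4.22 in naive cells. Lymph node Tregs were above Foxp3+ CD24lo thymocytes by 1.40 ± 0.39 (adjusted p = 0.0302), a call lost on leaving out any of 6 arrays (adjusted p of 0.0521 to 0.119). Naive minus Foxp3- CD24lo did not pass (1.11 ± 0.39, adjusted p = 0.0594). That SE includes the precursor spread (SD 1.51), while the SD was 0.22 in naive and 0.11 in Foxp3- CD24lo cells.

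Pou2af1, a coactivator of Oct factors best known from B cells, was lower in Foxp3+ cells at every CD24 level. It had 6.98, 6.83 and 7.29 in precursors, 4.18, 3.96 and 4.54 in Foxp3+ CD24hi and 5.52, 5.25 and 5.28 in Foxp3- CD24hi cells. Foxp3+ CD24int cells (3.27, 2.99 and 3.35) were below Foxp3- CD24int cells (5.73, 5.21 and 5.73), with a difference of -2.35 ± 0.22 (adjusted p = 9.52e-09). Lymph node Tregs, at 5.77, 6.25 and 6.39, were higher than Foxp3+ CD24lo thymocytes by 2.83 ± 0.22 (adjusted p = 3.96e-09). The naive cells of the lymph node, at 6.80, 7.06 and 7.40, were level with the precursors. A list of 8 measured B cell genes without Pou2af1 averaged 5.08 to 5.43 on the precursor arrays, 5.09 to 5.46 in Foxp3+ CD24hi, 5.05 to 5.29 in Foxp3- CD24hi and 6.24 to 6.57 in lymph node Tregs, and its part in the lymph node level was not tested. Myh10, a nonmuscle myosin heavy chain gene, had 7.21, 6.76 and 7.43 in precursors and 5.49 to 6.09 on all CD24hi arrays. It was the gene that fell in the Foxp3- step (-0.56 ± 0.18, adjusted p = 0.0474), a call lost on leaving out any of 16 arrays, among them Foxp3- CD24int replicate 1 (adjusted p = 0.269).

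**Figure D4:**
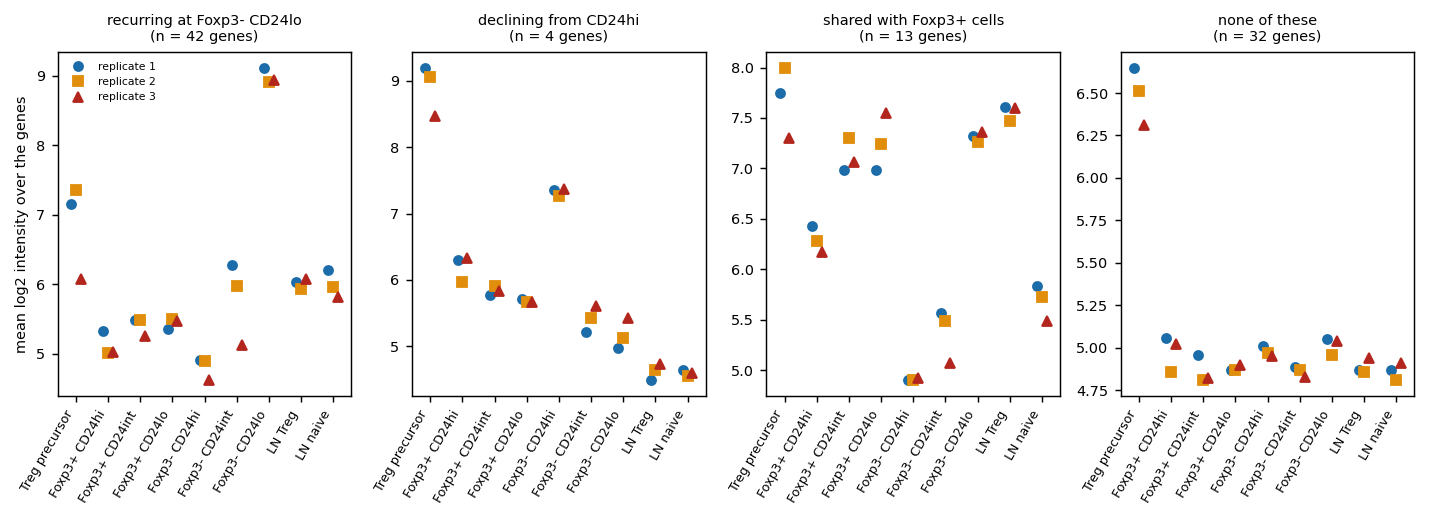
Mean log2 intensity over the genes of each pattern on every array, with 1 panel per pattern and symbols for replicates 1 to 3. Recurring genes average 7.15, 7.35 and 6.07 on the precursor arrays and are highest in Foxp3- CD24lo cells. Declining genes average 9.20, 9.05 and 8.47 in precursors. The mean of genes of no pattern, at 6.65, 6.51 and 6.31, stands out in precursors alone, though not every gene does.

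The kinds of gene differed in precursor replicate 3. It was at least 1 below the mean of replicates 1 and 2 in 5 of 5 double-positive genes (median -1.68), in 11 of 14 innate-like genes (median -1.35, with 14 of 14 lower) and in 0 of 4 signal-induced genes (median -0.06, with 2 lower and 2 higher). Of the recurring genes 23 of 42 were at least 1 below, of the genes shared with Foxp3+ cells alone 0 of 5, and of those of no pattern 8 of 32. Over all genes the share was 0.923%. The rule chose the 83 genes by these precursor values, so setting them beside that share is a description and no test. The cell cycle list, with none of the 83, had 10 of 23 genes at least 1 below (median -0.64). It averaged 9.30, 8.23 and 8.00 on the precursor arrays, so much of that gap came from a high replicate 1. Replicate 1 was the highest array for this list in every other group too, as with 8.73, 8.00 and 7.98 in Foxp3- CD24hi cells. The count therefore does not show a drop of replicate 3 alone. On the whole lists, the 36 innate-like genes averaged 6.33, 6.44 and 5.61 on the precursor arrays, and the 55 signal-induced genes 9.13, 9.33 and 9.33. The 22 innate-like genes outside the 83, which the rule did not choose, averaged 5.77, 5.80 and 5.49 there, a smaller drop in replicate 3. They had 5.79, 5.73 and 5.30 on the Foxp3- CD24int arrays and 7.13, 7.11 and 7.21 on the Foxp3- CD24lo arrays. The 10 double-positive genes outside the 83 averaged 7.60, 7.44 and 7.41 on the precursor arrays. What distinguishes replicate 3 was not tested, and no label states it.

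**Figure D5:**
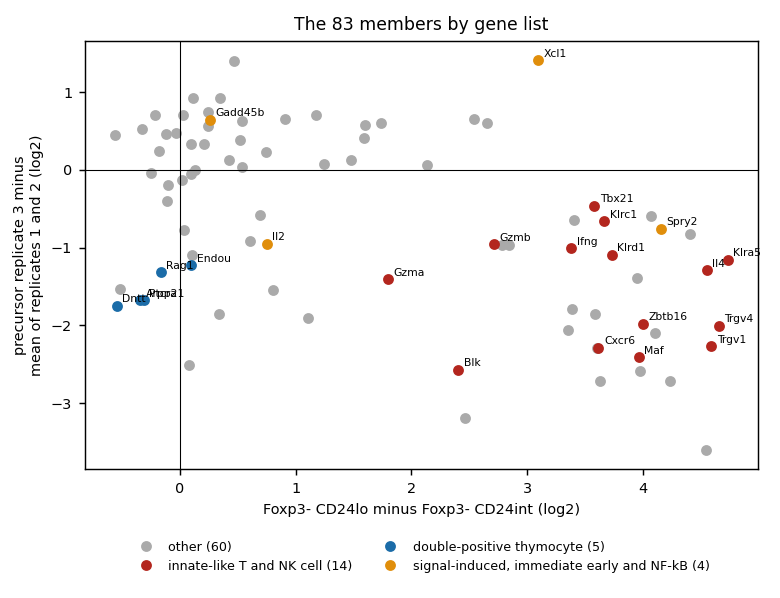
Each point is 1 of the 83 genes. The horizontal axis gives Foxp3- CD24lo minus Foxp3- CD24int (log2) and the vertical axis precursor replicate 3 minus the mean of precursor replicates 1 and 2 (log2), coloured by list. Innate-like genes lie at the lower right, double-positive genes at the lower left, and signal-induced genes on both sides of the zero line.

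The choice was also repeated by taking genes from 2 replicates of each of the 3 groups and reading the margin in the third, which leaves out 3 arrays of the same number at once and rests on the values that the rule used. Of 82 genes chosen without replicate 1, 60 (73.2%) had a margin of at least 1 in replicate 1, and of 75 chosen without replicate 2, 63 (84%) did so in replicate 2. Of 103 chosen without replicate 3, 37 (35.9%) reached it in replicate 3, and 87 were above 0. Over all genes the share with such a margin was 0.594%, 0.61% and 0.368% in replicates 1, 2 and 3. The choice of 108 genes without precursor replicate 3 held 52 recurring, 4 declining and 13 shared genes, and 47 of no pattern. Of these 108, 57 rose and 1 fell in the Foxp3- step from CD24int to CD24lo, 66 were lower and 12 higher in Foxp3+ than in Foxp3- CD24lo cells, and 52 had a Foxp3+ step below the Foxp3- step.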

How the data were processed

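Messenger RNA was measured in 27 samples of T cells sorted from BALB/c mice (9 groups of 3) on Affymetrix 3' arrays from 50 ng of total RNA, per the labels' protocols. The deposited values are probe set intensities, which the authors made with RMA per the submitters' processing notes, with settings and version not given in the sources used here. They ran from 3.55 to 24083 and were taken as linear and turned to log2 with no added constant. RMA normalises between arrays, so levels are relative, and detection calls were not analysed here. Of 45101 probe sets, the platform table gave a single symbol for 34958, several for 932 and none for 9211. Each of the 18194 genes was represented by its brightest single-symbol probe set over the 27 arrays, and 9012 genes had several. No dim gene was removed. The number of arrays limits the precision, with a typical standard error of 0.15 log2 units for a difference between groups.

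Groups came from the labels and replicate numbers from the leading digit of the description codes. The tests came from limma 3.58.1 (R 4.3.3) fitted with 9 group means on all 27 arrays, empirical Bayes moderation (prior degrees of freedom 5.98), two-sided p-values and Benjamini-Hochberg adjustment over all genes. Tested on simulated data for the Foxp3- step from CD24int to CD24lo over 18194 genes, the fit recovered 93% of changes of 1 log2 unit and 100% of changes of 2, with 6.76% of calls false. The simulation drew independent normal noise around a single mean profile, with 100 changed genes of each size. It held no shared replicate deviations or odd arrays, so these rates check the code and are not error rates of the real tests. Same-numbered arrays deviated together, with every pair's correlation above 0.1 across genes, in both CD24int to CD24lo steps (lowest 0.39 in Foxp3- and 0.38 in Foxp3+ cells), between lymph node groups (0.25) and between lymph node Tregs and Foxp3+ CD24lo cells (0.10 after rounding). They did not in the other 4 comparisons (lowest -0.05 to 0.10). The pairing rests on the data alone, since no label says what the digit marks, and a block was an alternative.

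The 83 genes and the 14 gene lists were chosen with earlier results of these data known. Genes named are those with the 8 largest margins, the 5 largest in each pattern, up to 10 of each list, the 3 largest rises and 3 largest falls among non-overlapping calls in each comparison, and the 3 genes on either side of the threshold. Exceptions are marked. Alternatives were the replicate block, the mean of all probe sets, quantile normalisation, dim genes left out, the compared groups alone, array weights, other thresholds and each array left out. Leaving out precursor replicate 3 and Foxp3- CD24hi replicate 3 when choosing genes was stressed after the data were seen.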

Additional observations from a re-analysis of the deposited data

Results flagged for a closer look

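In 22 of the named genes the step from CD24int to CD24lo differed between Foxp3+ and Foxp3- cells by a direct test of that difference, the interaction in limma, and in all 22 the Foxp3+ step was the lower. Each value is the Foxp3+ step minus the Foxp3- step on the log2 scale. Among genes of the innate-like list it was -3.79 for Cxcr6, -4.38 for Klrd1, -3.79 for Klrc1, -4.99 for Klra5, -4.61 for Trgv4 and -4.66 for Trgv1. Further innate-like values were -4.00 for Zbtb16, -2.78 for Ifng, -2.51 for Gzma, -2.79 for Gzmb and -3.31 for Maf. The signal-induced genes Xcl1 and Spry2 had -3.91 and -4.18. The other recurring genes had -4.15 for Jag1, -2.68 for Lgals3, -4.10 for 5830411N06Rik and -4.64 for App. Genes also shared with Foxp3+ cells had -3.36 for Ccr2, -3.54 for S100a4, -3.15 for Fgl2 and -4.06 for S100a6. Tnfsf4, which met no pattern, had -0.99. The value for Lgals3 lost the call on leaving out any of 12 arrays (adjusted p of 0.0504 to 0.116) and that for Tnfsf4 on leaving out any of 19 (adjusted p of 0.05 to 0.142), which include both CD24int and CD24lo arrays.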

How the results depend on the processing

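The replicate block moved no count of calls by over 1.5 times, giving 52 of the 83 genes in the Foxp3- step from CD24int to CD24lo, 0 in the Foxp3+ step, 33 between Foxp3 classes at CD24int and 62 at CD24lo, 34 between lymph node groups, 24 for lymph node Tregs against Foxp3+ CD24lo, 56 for lymph node naive against Foxp3- CD24lo and 44 for the difference between the steps. With dim genes left out, 35 of the 83 genes remained to be tested, and the counts were 25 in the Foxp3- step, 15 between classes at CD24int, 31 at CD24lo, 16 between lymph node groups, 28 for naive against Foxp3- CD24lo and 23 for the difference between the steps. Array weights called 3 of the 83 genes in the Foxp3+ step, and the share of all genes under that fit is not given here. With each array left out in turn, the ranges were 42 to 49, 0 to 0, 24 to 34, 57 to 62, 28 to 34, 16 to 22, 46 to 57 and 38 to 44 in the order of the block counts. The number of genes chosen was 49 where every probe set had to meet the rule, 55 at a threshold of 1.2, 123 at 0.8, and 79 to 108 with each array left out, the highest without precursor replicate 3. Of 165 calls for named genes, 142 passed under every alternative fit, none of 5375 alternative values reversed and 126 did not pass. The cause of these changes was not tested, other than the smaller number of genes tested once dim genes were left out.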
